A study of Homo sapiens with 30 samples.

Results

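The DNAJ genes encode the HSP40 proteins, the cochaperones that bring unfolded or newly made proteins to HSP70. They were taken from the gene table by name, as every row called DNAJA, DNAJB or DNAJC followed by a number and at most 1 letter. The rule found 45 genes among 30373 rows, with 4 in class A, 13 in class B and 28 in class C. It used no measured value. Of the 45 members, 38 were at 1 FPKM (a fragment count scaled by the transcript's length and by the library's total) or more in at least 3 libraries of each fit and were tested, and the other 7 were too low. A member that passed this filter through 1 group alone was bound to differ from the groups where it is low, so counts over the 38 are counts over the tested members only.

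The libraries of polyadenylated RNA came from HCT116 and COLO205, both established human colorectal cancer lines, and from MDAMB231, a breast cancer line. The cells had received either 500 nM of ML-792, which the labels call ML00754792 and which blocks the enzyme that activates SUMO, or 0.01% DMSO as the vehicle. Each line was treated for 16 h with either agent, which gave 6 groups. HCT116 was also treated for 3.5 h with either agent and with or without heat shock, which gave another 4 groups. Heat shocked cells had 2 h of ML-792 or DMSO, then 0.5 h at 43 °C and 1 h of recovery at 37 °C. All 10 groups had n = 3, described by the labels as biological triplicates. No group had a genetic change made by the study. Breast cancer is represented by a single established line, and colorectal cancer by HCT116 and COLO205 alone. Fewer expressing cells and less RNA per cell cannot be told apart in such bulk samples.

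Every J protein carries a J domain, which binds HSP70 and speeds its hydrolysis of ATP, so that HSP70 closes on its substrate. Class A and class B members have the J domain at the N terminus and bind many unfolded substrates themselves, while class C members may carry it anywhere and mostly serve HSP70 at a single place or task, such as the endoplasmic reticulum (ER), the mitochondrial import motor or clathrin-coated vesicles. In the cytosol the heat shock factor HSF1 is known to switch on a subset of the family, DNAJB1 first among them, together with the inducible HSP70 genes. In the ER, DNAJB9, DNAJB11, DNAJC3 and DNAJC10 work with the ER HSP70 (HSPA5) and are known targets of the unfolded protein response.

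By estimate from the steps of low values, the libraries held 27.8 to 35.3 M (mega) fragments at 16 h, 49.3 to 73.9 M at 3.5 h without heat shock and 37.6 to 56.2 M after heat shock. Summed FPKM ran from 461422 to 524077, from 552951 to 575982 and from 608121 to 732251 in the same sets. The heat shocked and unheated libraries of 3.5 h carry library codes of different ranges, so heat shock and library set cannot be told apart. No replicate pair held identical values, and the lowest correlation of replicates across genes was 0.996. Of the markers used to check the lines, VIL1, CDH17 and LGALS4 of the colonic epithelium were abundant in COLO205 and absent or nearly so in HCT116, while EPCAM was present in both. EPCAM was also at 12.4 to 15.9 FPKM in MDAMB231. CDH1 was at 94.4 to 105 FPKM in COLO205, 7.73 to 13.6 FPKM in HCT116 and at most 0.852 FPKM in MDAMB231. CDX2 was between 4.6 and 6.63 FPKM in HCT116 and at most 1.07 FPKM in COLO205, and KRT20 stayed below 1 FPKM in every library. MDAMB231 had 769 to 931 FPKM of VIM and was at or near 0 for ESR1 and PGR. Of its other mesenchymal markers ZEB1, at 9 to 10.7 FPKM, was above the other lines. CD44, at 113 to 141 FPKM, was near HCT116 at 16 h (85.8 to 124 FPKM). SPARC was at 0.155 to 0.381 FPKM, below the 0.473 to 0.664 FPKM of HCT116 at 16 h. Of the other breast markers ERBB2, at 19.3 to 20.2 FPKM, was near HCT116, and GATA3, at 2.02 to 3.3 FPKM, was above it. COLO205 was above MDAMB231 in both, at 37.7 to 51.7 FPKM of ERBB2 and 3.58 to 5.55 FPKM of GATA3.

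The family was broadly transcribed. By group mean, 31 of the 45 members were at 1 FPKM or more in all 10 groups, 7 were so in some groups only and 7 were below 1 FPKM in every group. The number at 1 FPKM or more was 37 or 38 in the HCT116 groups, 34 in both COLO205 groups and 35 in both MDAMB231 groups. Between 22 and 26 members reached 10 FPKM in a group.

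The 7 low members were DNAJB3, DNAJB7, DNAJB8, DNAJB13, DNAJC5B, DNAJC5G and DNAJC28. The first 4 are class B members known mainly from testis, and DNAJC5B and DNAJC5G are relatives of the synaptic vesicle protein DNAJC5 that are also known from testis. DNAJB8 was listed at 0 in 22 of 30 libraries and DNAJB3 in 24, and DNAJB3 was above 0 in the 6 COLO205 libraries, at 0.0344 to 0.23 FPKM. DNAJC5G had its highest group mean, 0.664 FPKM, in HCT116 with ML-792 for 16 h, and was at most 0.0401 FPKM in COLO205 and MDAMB231. Nearest below the limit was DNAJC28, with a highest group mean of 0.999 FPKM in HCT116 with DMSO for 16 h, where the libraries held 1.11, 1.13 and 0.758 FPKM. By single libraries, therefore, 6 members stayed below 1 FPKM throughout. Nearest above it were DNAJC27, a small GTPase with a J domain, with a highest group mean of 1.35 FPKM, and DNAJC18, an ER membrane protein, with 1.78 FPKM.

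**Figure D1:**
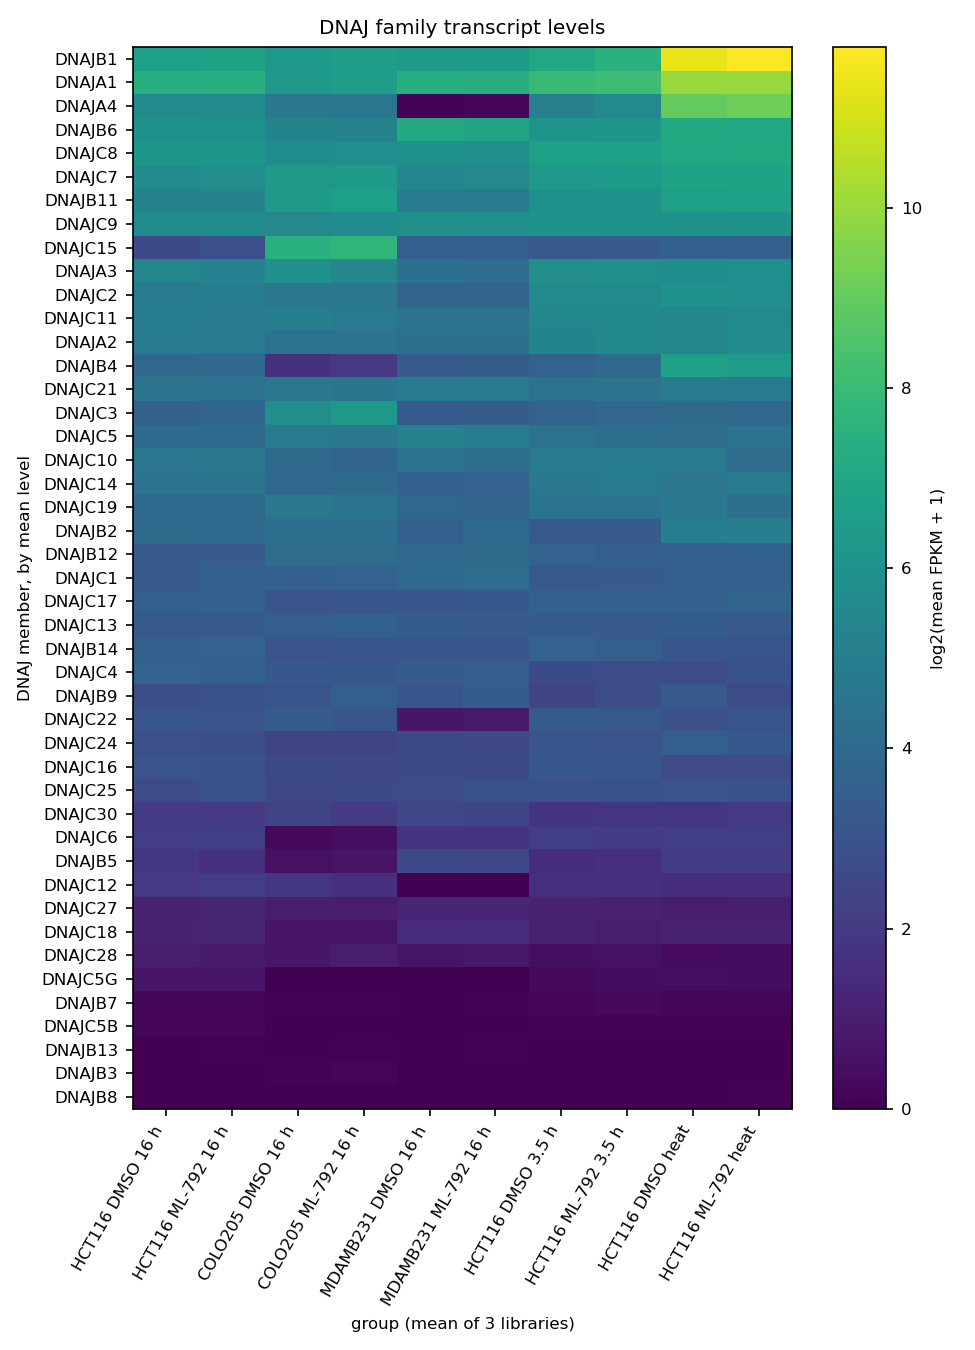
Mean level of each of the 45 DNAJ members, as log2(mean FPKM + 1) by colour, in the 10 groups (columns, each the mean of 3 libraries), with members ordered by their mean over the groups. DNAJB1 and DNAJA1 head the family, DNAJA4 is near 0 in MDAMB231 alone, DNAJC15 stands out in COLO205, and the 7 rows at the bottom are the members below 1 FPKM in every group mean.

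The 45 members together held 0.192% of the summed FPKM in HCT116 with DMSO for 16 h, 0.214% in COLO205 and 0.196% in MDAMB231. In HCT116 with DMSO the most abundant member was DNAJA1, the main cytosolic class A protein, at 164 ± 8.34 FPKM (SD, n = 3). It was followed by DNAJB1 at 101 ± 1.89, the spliceosome-associated DNAJC8 at 73.4 ± 3.02, the aggregation-suppressing DNAJB6 at 59.4 ± 3.81, the tetratricopeptide protein DNAJC7 at 50.9 ± 2.01 and the histone cochaperone DNAJC9 at 48.3 ± 1.76 FPKM. MDAMB231 also had DNAJA1 in the lead, at 174 ± 3.85 FPKM, with DNAJB6 next at 141 ± 4.34. COLO205 differed in its leading member, which was the mitochondrial DNAJC15 at 177 ± 5 FPKM, ahead of DNAJC7 at 81.7 ± 1.69 and the ER lumenal DNAJB11 at 79.4 ± 3.37.

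Heat shock in HCT116 was first compared with no heat shock in the cells that had received the vehicle. DNAJB1, the classical heat-inducible HSP40, held 122, 133 and 130.2 FPKM in the DMSO libraries without heat shock and 2384, 2763 and 2954 FPKM in those with it. The lowest heated library was thus far above the highest unheated one. Its mean rose 21-fold, or by 4.38 ± 0.08 (SE) on the log2(FPKM + 1) scale that all differences below use (limma adjusted p = 8.9e-13). DNAJA4, a cytosolic class A member, rose 15-fold, from 31.7, 34.6 and 34.5 FPKM to 499, 499 and 511 FPKM (log2 difference 3.87 ± 0.06, limma adjusted p = 7.7e-14). DNAJB4, a close relative of DNAJB1, rose from 11.6, 13.1 and 13.1 FPKM to 101, 117 and 104 FPKM, by 2.99 ± 0.12. DNAJA1 rose from 239.7, 245 and 247 FPKM to 893, 1019 and 1049 FPKM, by 2.01 ± 0.07. In each of these 4 members no heated library overlapped an unheated one, as was so in 62% of all genes tested.

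Next came DNAJB2, which sorts ubiquitinated clients to the proteasome, with 9.36, 8.67 and 9.12 FPKM before and 29.8, 31.5 and 37 FPKM after heat shock (1.74 ± 0.10). DNAJB6 went from 66.5, 66.5 and 68 FPKM to 141, 143 and 143 FPKM (1.08 ± 0.05). These 6 members were the ones that passed the test with at least a 2-fold rise, against a background of 2.76% of all genes tested. DNAJB6 was near that limit. With all libraries brought to equal summed FPKM its rise was 0.84, short of 2-fold, and with median-of-ratios scaling it was 1.03. The share of DNAJ rows in the summed FPKM moved from 0.221% ± 0.00249 to 0.811% ± 0.0187, and DNAJB1 alone made up 10.4% ± 0.286 of all DNAJ FPKM before and 50.4% ± 1.48 after heat shock (SD, n = 3).

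**Figure D2:**
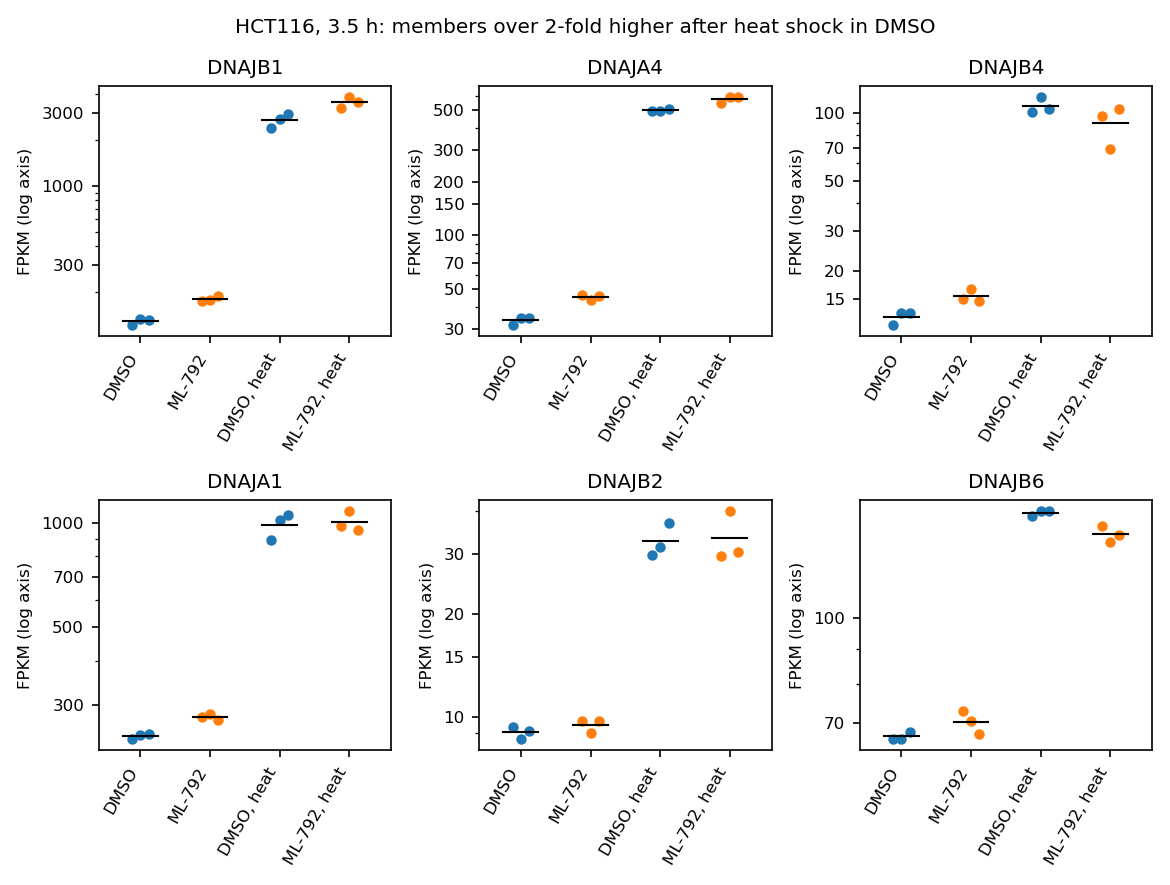
FPKM (log axis) in each of the 3 libraries (points) of the 4 HCT116 groups of 3.5 h, with the group mean as a bar, for the 6 members with at least a 2-fold rise after heat shock in DMSO. DMSO is blue and ML-792 orange, and heated libraries lie above unheated ones in every panel, for DNAJB1 at 2384 to 3808 against 122 to 187 FPKM.

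The promoters of 5 of these 6 members are shown because they hold paired, inverted GAA units, the building block of the heat shock element that HSF1 binds. The sequences are those of RefSeq (GRCh38.p14), read 5′ to 3′ on the gene's strand and ending at the base before the annotated start. Capitals mark the matches to GAANNTTC or TTCNNGAA, with overlapping matches joined. DNAJB1 and DNAJA4 have 3 promoter entries each and DNAJB4 has 2, and a single entry with a match is printed for each gene. The other entries of DNAJA4 and DNAJB4 held no match, while a further entry of DNAJB1 did. The lines cover chr19:14518398-14518537 (minus strand) for DNAJB1, chr15:78264422-78264561 (plus) for DNAJA4, chr1:78004799-78004938 (plus) for DNAJB4, chr9:33025063-33025272 (plus) for DNAJA1 and chr7:157336864-157337003 (plus) for DNAJB6.
DNAJB1: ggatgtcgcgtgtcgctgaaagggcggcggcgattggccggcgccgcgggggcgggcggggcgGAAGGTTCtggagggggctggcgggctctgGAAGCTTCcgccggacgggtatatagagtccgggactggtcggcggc
DNAJA4: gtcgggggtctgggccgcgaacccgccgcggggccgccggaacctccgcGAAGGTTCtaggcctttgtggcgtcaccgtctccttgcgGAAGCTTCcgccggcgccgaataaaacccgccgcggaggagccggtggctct
DNAJB4: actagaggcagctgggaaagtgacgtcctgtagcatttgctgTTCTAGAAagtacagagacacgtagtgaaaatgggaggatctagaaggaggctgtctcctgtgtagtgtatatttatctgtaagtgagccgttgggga
DNAJA1: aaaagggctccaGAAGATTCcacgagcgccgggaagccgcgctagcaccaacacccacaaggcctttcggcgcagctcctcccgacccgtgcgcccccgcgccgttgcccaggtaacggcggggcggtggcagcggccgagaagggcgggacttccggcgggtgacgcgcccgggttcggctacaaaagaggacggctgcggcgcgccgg
DNAJB6: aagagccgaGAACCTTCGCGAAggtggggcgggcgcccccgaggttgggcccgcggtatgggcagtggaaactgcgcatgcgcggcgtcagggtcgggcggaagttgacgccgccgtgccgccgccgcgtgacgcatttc

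DNAJB1 and DNAJA4 carry the same pair of octamers, GAAGGTTC and GAAGCTTC, at -77 and -47 and at -91 and -52 from the start (first base of each match). DNAJB6 has 3 alternating units in a row at -131. DNAJA1 has 1 pair at -198 and 3 alternating units beginning 4 bases into the transcript, outside the stretch printed. Windows of 250 bases before to 50 after a start were searched on both strands. GAANNTTC or TTCNNGAA, palindromic patterns that were chosen after the sequences had been seen, occurred in 8 of the 40 members with an entry and in 13.5% of all 35116 promoter entries (16.2% of symbols). Besides the 5 shown and DNAJB7, which is among the 7 low members, DNAJC15 and DNAJC6 had a match, which makes 2 of the 29 other tested members with an entry. DNAJB2 had none. The longer pattern, in which a further inverted unit follows after another NN, occurred in DNAJA1 and DNAJB6 and in 0.49% of entries. The ER stress element (CCAAT and CCACG with 9 free bases between them, both strands) occurred in 0 of 40 members and in 0.0769% of entries. These matches are descriptions of letters and no test was made of them.

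Over the whole family, 21 of the 38 tested members differed between heated and unheated DMSO libraries, 17 higher and 4 lower. The background was 49.5% of genes tested (28.9% higher and 20.6% lower), so the count by itself is close to that of all genes. The median difference was 0.09 over the members and 0.05 over all genes. Grouped by place, 8 of 9 cytosolic HSP70 partners rose, with a median of 1.74. Besides the 6 already named these were DNAJB5, from 1.91 to 3.24 FPKM (0.54 ± 0.08), and DNAJC7, from 79 to 110.4 FPKM (0.48 ± 0.06). DNAJA2, the other abundant cytosolic class A member, had 37.7, 39.6 and 40.4 FPKM before and 37.5, 40.9 and 43.9 FPKM after heat shock, with groups that overlapped (0.05 ± 0.15, limma adjusted p = 0.79, and -0.18 with equal totals).

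Of 11 ER members 4 rose and 2 fell. The lumenal DNAJB9, which binds HSPA5 and unfolded ER proteins, rose by 0.83 ± 0.09 from 4.32, 4.46 and 4.54 FPKM to 7.74, 9.49 and 8.87 FPKM. DNAJB11, another lumenal member, rose by 0.79 ± 0.06 from 59.3 to 103 FPKM. DNAJC3, an inhibitor of the eIF2α kinase PERK and of PKR, and DNAJC1, an ER membrane protein, rose by 0.34 ± 0.07 and 0.27 ± 0.07. The falls were those of 2 ER membrane proteins, DNAJB14 by 0.54 ± 0.06 (from 12.1 to 8.04 FPKM) and DNAJC16 by 0.45 ± 0.07. The ER members thus moved in both directions, and 6 of 11 called is close to the 49.5% of all genes. With equal totals 2 rose and 5 fell.

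Of 6 members of the nucleus, ribosome and diphthamide group 4 rose, by 0.38 to 0.47: the ribosome-associated DNAJC2, DNAJC8, the ribosome maturation factor DNAJC21 and DNAJC24, which takes part in diphthamide synthesis. Of all genes 28.9% rose and 20.6% fell. With equal totals 2 of this group rose and 2, DNAJC9 and DNAJC17, fell. Of 6 tested mitochondrial members DNAJC15 rose (0.36 ± 0.07) and the others did not pass. With equal totals no mitochondrial member rose, and DNAJA3 and DNAJC11 fell. Of 4 tested vesicle members DNAJC5 fell by 0.17 ± 0.06 and the others did not pass, although DNAJC27 fell too with equal totals. DNAJC22 fell by 0.39 ± 0.07 from 8.97 to 6.6 FPKM.

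The scaling of the libraries bears on the smaller of these differences. With all libraries brought to equal summed FPKM, the median over all genes moved from 0.05 to -0.16 and the balance of member calls from 17 higher and 4 lower to 12 and 12, while median-of-ratios scaling gave 17 and 7. The 12 members higher under all 3 scalings were the 8 cytosolic ones, DNAJB9, DNAJB11, DNAJC8 and DNAJC24, and the 4 lower under all 3 were DNAJB14, DNAJC16, DNAJC22 and DNAJC5. DNAJC1, DNAJC2, DNAJC3, DNAJC15 and DNAJC21 were called higher only without the equal-total scaling.

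The HSP70 genes that the DNAJ proteins serve were examined beside them. Within this fit HSPA6 and HSPA1L reached 1 FPKM only in heated libraries, so their rise was fixed by the filter and they were left out of the count after their values had been seen. No tested DNAJ member was in that position. Of the other 13 HSP70 and HSP110 genes 10 rose in DMSO and 3 did not pass, where 49.5% of all genes were called, and with equal totals 7 rose and 1 fell. HSPA6, a strictly stress-inducible HSP70, went from at most 0.0255 FPKM to 54.8, 62.2 and 76.5 FPKM, and HSPA1B from 172, 185 and 167 FPKM to 3724, 4149 and 4672 FPKM. The nearly identical HSPA1A and HSPA1B can share fragments, so the split between them is uncertain. HSPH1, an HSP110 that recharges HSP70 with nucleotide, rose by 3.05 ± 0.08 and HSPA4L by 2.85 ± 0.11. Of 14 exchange factors and adaptors 5 rose and 3 fell (4 and 6 with equal totals), a share close to that of all genes. The rises were led by BAG3 (3.74 ± 0.08) and STIP1 (0.85 ± 0.06), which links HSP70 to HSP90. The J proteins SEC63, HSCB and GAK, which carry other names, had differences of 0.07, 0.13 and 0.02 in DMSO and did not pass, although GAK was called lower with equal totals. Among the heat shock factors HSF1 had a difference of -0.02 ± 0.07 (limma adjusted p = 0.8, called lower with equal totals), HSF2 fell by 0.45 ± 0.09 and HSF4, which passed the filter only through heated libraries, had 0.859 FPKM without and 1.5 FPKM with heat shock.

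Under ML-792 the members with a rise of at least 2-fold after heat shock were 5 of the 6 found in DMSO. DNAJB1 held 175, 177 and 187 FPKM without and 3246, 3808 and 3549 FPKM with heat shock, a rise of 4.29 ± 0.08. DNAJA4 rose by 3.65 ± 0.06 from 46.4, 43.4 and 45.6 FPKM to 547, 591 and 591 FPKM, and DNAJA1 by 1.85 ± 0.07 to 979.5, 1077 and 954 FPKM. DNAJB4 rose by 2.45 ± 0.12 to 97.2, 69.4 and 104 FPKM, the second library lying below the other 2. In these 4 members, too, the heated and unheated libraries did not overlap (66.8% of all genes). DNAJB2 rose by 1.69 ± 0.10 and DNAJB6 by 0.90 ± 0.05, the latter just short of 2-fold, which leaves 5 members past that limit (2.71% of genes tested rose as much). With equal totals DNAJB6 was short of 2-fold in DMSO too, at 0.84.

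In all, 18 of 38 members differed, 14 higher and 4 lower, against 61.7% of genes tested (39.3% higher and 22.3% lower). Of these, 17 were also called in DMSO, which is 17 of the 21 called there and 17 of the 18 called here, all in the same direction. The exception here was DNAJC10, a disulfide reductase of the ER lumen, which fell by 0.82 ± 0.08 from 32, 31.6 and 30.4 FPKM to 17.4, 15 and 20 FPKM, without overlap. Called in DMSO but not under ML-792 were DNAJB9, DNAJC3, DNAJC5 and DNAJC15. By place, 8 of 9 cytosolic partners rose (median 1.69), 2 of 11 ER members rose and 3 fell, and 4 of 6 members of the nucleus, ribosome and diphthamide group rose. With equal totals 7 cytosolic partners rose, 1 ER member rose and 7 fell, and in the nucleus group 0 rose and 1 fell. Of the rises lost under that scaling, DNAJC1, DNAJC2 and DNAJC24 turned to -0.03, -0.11 and -0.03. DNAJC7, DNAJC8 and DNAJC21 kept their sign (0.11, 0.08 and 0.07) and did not pass either. Without HSPA6 and HSPA1L, 10 of 13 HSP70 and HSP110 genes rose and 3 did not pass, while with equal totals 6 rose and 3 fell. Among the 10 were HSPH1 by 2.54 ± 0.08, the constitutive HSPA8 by 1.16 ± 0.06 and HSPA5 by 0.81 ± 0.07. With equal totals the balance under ML-792 turned to 8 higher and 15 lower, and with median-of-ratios scaling it was 11 and 4. The 8 higher under all 3 scalings were DNAJA1, DNAJA4, DNAJB1, DNAJB2, DNAJB4, DNAJB5, DNAJB6 and DNAJB11.

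Whether ML-792 changed the response to heat shock was tested as an interaction, which passed in 2 of 38 members (6.41% of all genes passed). Both were ER members with a lower response under ML-792. For DNAJB9 the interaction was -0.91 ± 0.13 (limma adjusted p = 0.0041): it rose in DMSO, while under ML-792 it had 6.24, 5.92 and 5.73 FPKM without and 5.65, 4.7 and 6.49 FPKM with heat shock, which overlap. For DNAJC10 it was -0.72 ± 0.12 (limma adjusted p = 0.01), since this gene fell under ML-792 and had a difference of -0.10 ± 0.08 in DMSO. DNAJB4 had an interaction of -0.54 ± 0.17 (limma adjusted p = 0.068), DNAJC5 one of 0.30 ± 0.08 (limma adjusted p = 0.05, just over the threshold) and DNAJB1 one of -0.09 ± 0.12 (limma adjusted p = 0.62). DNAJA4 had an interaction of -0.22 ± 0.08 (limma adjusted p = 0.092), which passed with median-of-ratios scaling (-0.28, adjusted p = 0.041). DNAJA1 had one of -0.16 ± 0.10 (limma adjusted p = 0.29), which passed with equal totals (-0.22, adjusted p = 0.048). A difference in DNAJB1 was therefore not detectable with 3 libraries per group. The count rose to 4 with median-of-ratios scaling and to 4 and 6 without the third heat shocked library of DMSO or of ML-792.

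**Figure D3:**
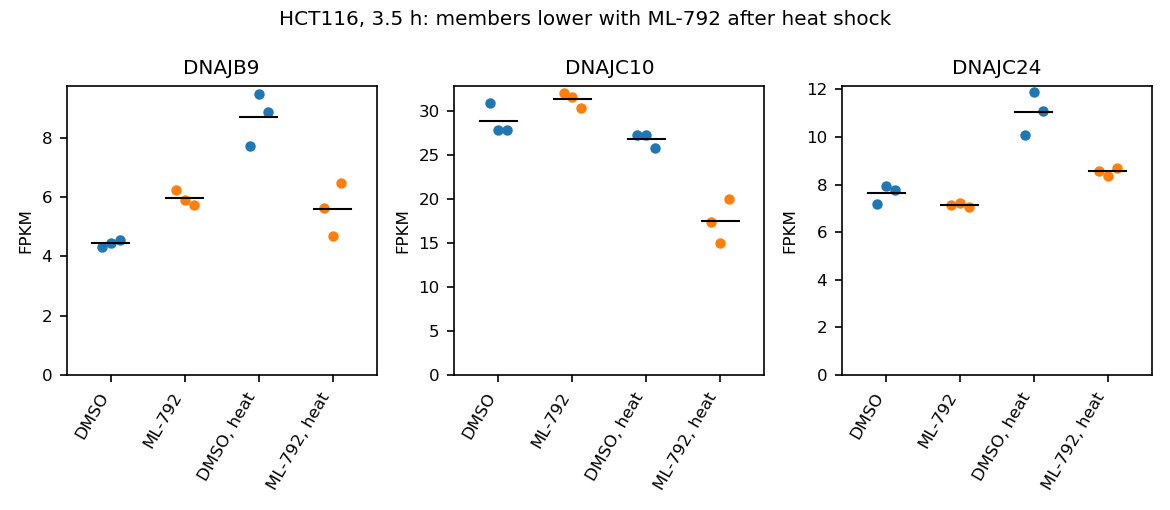
FPKM (linear axis from 0) in each of the 3 libraries (points) of the 4 HCT116 groups of 3.5 h, with the group mean as a bar, for DNAJB9, DNAJC10 and DNAJC24. With heat shock, all ML-792 libraries (orange) lie below all DMSO libraries (blue) in the 3 panels, for DNAJC10 at 15 to 20 against 25.8 to 27.3 FPKM.

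Among heat shocked libraries themselves, ML-792 against DMSO gave 9 called members, 5 higher and 4 lower, where 33.5% of all genes were called (18.4% higher and 15.1% lower). The lower ones were DNAJC10 by 0.60 ± 0.08, DNAJB9 by 0.56 ± 0.09, DNAJC24 by 0.33 ± 0.06 (10.1, 11.9 and 11.1 FPKM in DMSO against 8.58, 8.38 and 8.7 FPKM) and DNAJC19, of the mitochondrial import motor, by 0.37 ± 0.12 with groups that overlapped. In the other 3 the groups did not overlap, as in 35% of all genes. DNAJB1 was 1.31-fold higher with ML-792 (0.39 ± 0.08, limma adjusted p = 0.0068), with the lowest ML-792 library above the highest DMSO library. DNAJA4, DNAJC11 of the mitochondrial membrane-bridging complex, DNAJC14, an ER membrane protein, and DNAJA3, the mitochondrial class A member, were higher by 0.14 to 0.19. DNAJB1 alone among the 5 was higher under all 3 scalings, with splits of 2 higher and 6 lower (median of ratios) and 1 and 5 (equal totals), while the 4 lower members were lower under all 3.

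The comparison was uneven across libraries. Without the second heat shocked DMSO library 4 members were called, without the second ML-792 library 5 and without the third ML-792 library 15. With the 6 heat shocked libraries fitted alone 2 members were called, and the limma adjusted p was then 0.087 for DNAJB1, 0.064 for DNAJC24 and 0.11 for DNAJC19. DNAJC19 was lost without the second or the third library of DMSO or the first or second of ML-792 (adjusted p from 0.085 to 0.1). DNAJA4 and DNAJC11 were lost without the second library of DMSO or of ML-792 (adjusted p from 0.054 to 0.075). DNAJC14 was lost without any 1 of the 3 DMSO libraries or the first or second of ML-792 (adjusted p from 0.06 to 0.14). Among partners, HSPA6 was 2.01-fold higher with ML-792 after heat shock (129.6 against 64.5 FPKM) and HSPA1B 1.44-fold higher, while HSPA4 fell by 0.22 ± 0.06.

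At 3.5 h without heat shock, ML-792 asked for the early effect of the inhibitor. DNAJB1 had 122, 133 and 130.2 FPKM with DMSO and 175, 177 and 187 FPKM with ML-792, and DNAJA4 31.7, 34.6 and 34.5 FPKM with DMSO and 46.4, 43.4 and 45.6 FPKM with ML-792. In both members the groups did not overlap, as in 27.6% of all genes. They were higher by 0.48 ± 0.08 (1.40-fold, limma adjusted p = 0.011) and 0.42 ± 0.06 (1.34-fold, limma adjusted p = 0.0017), and were the only members called, 2 of 38, where 1.21% of all genes were. Larger than the remaining differences were those of the ER member DNAJB9 (0.36 ± 0.09, limma adjusted p = 0.12) and the cytosolic DNAJB4 (0.28 ± 0.12, limma adjusted p = 0.63), which did not pass. DNAJA1 had a difference of 0.18 on the same scale and did not pass either. With equal totals DNAJA1 did pass (0.17, limma adjusted p = 0.048). The HSP110 gene HSPH1 was higher too (0.51 ± 0.08), as the only 1 of 15 HSP70 and HSP110 genes, while with equal totals HSPA5 was called higher as well. The 15 include HSPA6 and HSPA1L, which passed the filter only through heated libraries and were below 1 FPKM in all libraries compared here. The call of DNAJB1 was lost without the first or the third DMSO library or any 1 of the 3 ML-792 libraries (adjusted p from 0.051 to 0.086), while its difference stayed between 0.45 and 0.50. Fitting only the 6 libraries compared raised the count to 6 members.

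After 16 h in HCT116 neither gene passed: DNAJB1 had 101, 103 and 99.8 FPKM with DMSO and 117, 115 and 110.2 FPKM with ML-792 (0.17, limma adjusted p = 0.058, and 0.042 with only these 6 libraries fitted), and DNAJA4 differed by 0.06 ± 0.06. The change of the ML-792 effect from 3.5 h to 16 h was tested directly and passed in 4 of 38 members (2.4% of all genes). The effect was smaller at 16 h for DNAJA4 (-0.36 ± 0.07, limma adjusted p = 0.016) and DNAJB1 (-0.31 ± 0.06, limma adjusted p = 0.011). For DNAJC1 the change was 0.28 ± 0.06, from an effect of 0.07 at 3.5 h, which did not pass, to 0.36 at 16 h. For DNAJA3 it was -0.23 ± 0.05, from an effect of 0.06 at 3.5 h, which did not pass, to -0.16 at 16 h. The 2 times come from different library sets. DNAJC1 was lost without any 1 of 8 of the 12 libraries and DNAJA3 without any 1 of 9 (adjusted p from 0.051 to 0.094), and DNAJA4 without the first or the third 3.5 h ML-792 library (0.051 in both). Without the first 3.5 h ML-792 library 1 member was called, and without the third one, any 3.5 h DMSO library, the second 16 h DMSO library or the second or the third 16 h ML-792 library 2 were.

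At 16 h the effect of ML-792 on the family differed from line to line and was small everywhere. In HCT116 5 of 38 members were called, 2 higher and 3 lower, where 14.7% of all genes were (8.32% higher and 6.42% lower). In COLO205 the count was 12, with 7 higher and 5 lower (37% of all genes, 19.4% higher and 17.7% lower). In MDAMB231 it was 4, with 2 each way (16.9% of all genes, 8.38% higher and 8.48% lower). The members' shares of 13.2%, 31.6% and 10.5% thus lay at or below those of all genes. None of the members was called in all 3 lines. DNAJA3, DNAJB9, DNAJC11 and DNAJC15 were called in 2 lines, 13 in 1 line and 21 in none, and no tested member reached a 2-fold difference in any line.

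**Figure D4:**
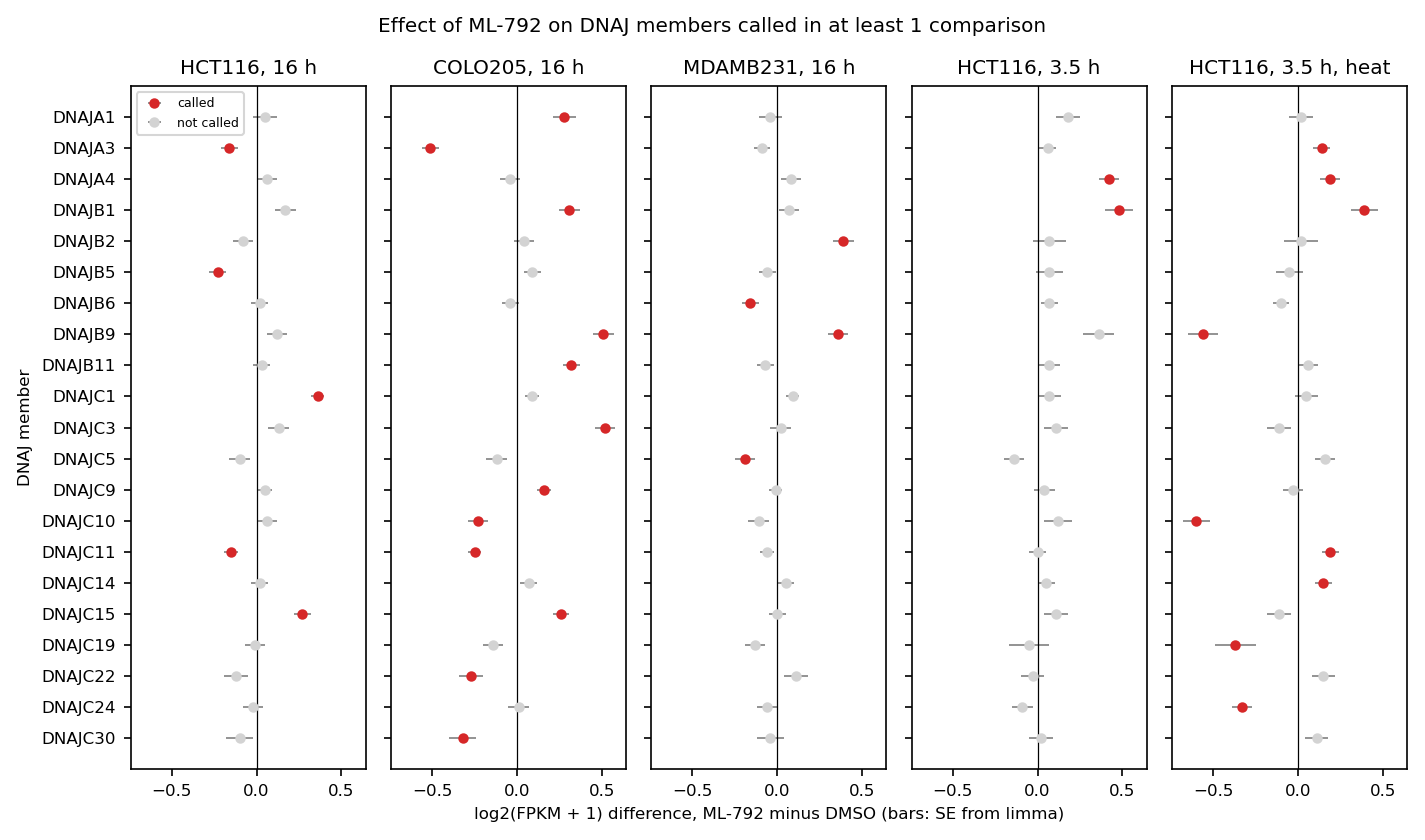
Difference between ML-792 and DMSO on the log2(FPKM + 1) scale (points, with the SE from limma as bars) for the 21 members called in at least 1 of 5 comparisons, 1 panel for each comparison, with called members in red. The largest rises in COLO205 are DNAJC3 (0.52) and DNAJB9 (0.51), and after heat shock DNAJC10 (-0.60) and DNAJB9 (-0.56) lie furthest to the left.

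In COLO205 the members with the largest rises were DNAJC3 and DNAJB9, both of the ER. DNAJC3 had 53.9, 55.3 and 57.5 FPKM with DMSO and 74, 78.8 and 87.7 FPKM with ML-792, and DNAJB9 7.09, 7.15 and 7.57 FPKM with DMSO and 10.3, 10.6 and 11.4 FPKM with ML-792. Neither overlapped, as in 49% of all genes. They rose by 0.52 ± 0.06 (limma adjusted p = 5.1e-06) and 0.51 ± 0.06 (limma adjusted p = 2.2e-06), and DNAJB11 rose by 0.32 ± 0.05. Against these, the ER disulfide reductase DNAJC10 fell by 0.23 ± 0.06, so that 3 of 11 ER members rose and 1 fell, a share near the 37% of all genes called. HSPA5, the ER HSP70 they serve, rose by 0.62 ± 0.05 in the same libraries, from 470.1 to 722 FPKM, and HYOU1, its exchange factor, by 0.30 ± 0.04.

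Mitochondrial members of COLO205 were among those that fell. DNAJA3, the J protein of the matrix HSP70, had 59.9, 60.6 and 61.8 FPKM with DMSO and 45.2, 43.1 and 39.2 FPKM with ML-792 and fell by 0.51 ± 0.05 (limma adjusted p = 6.9e-07). DNAJC30, which acts on the respiratory chain, fell by 0.32 ± 0.08 and DNAJC11 by 0.25 ± 0.04. DNAJC15, a membrane protein that can stand in for DNAJC19 at the import motor, rose by 0.26 ± 0.05 from 177 to 212 FPKM. Of 6 tested mitochondrial members 1 rose and 3 fell, where 19.4% and 17.7% of all genes did. The matrix HSP70 gene HSPA9 fell by 0.32 ± 0.06, from 228 to 183 FPKM. The cytosolic DNAJB1 (0.31 ± 0.06), DNAJA1 (0.28 ± 0.07) and the nuclear DNAJC9 (0.16 ± 0.04) also rose, and DNAJC22 fell by 0.27 ± 0.07. With only the 6 COLO205 libraries fitted the limma adjusted p of DNAJA1 was 0.052, and with a pseudocount of 0.1 that of DNAJC22 was 0.072.

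In HCT116 the ER membrane protein DNAJC1 rose by 0.36 ± 0.04 (limma adjusted p = 1.8e-05), from 8.46, 8.83 and 8.89 FPKM to 11, 11.7 and 11.6 FPKM. DNAJC15 rose by 0.27 ± 0.05, from 5.06 to 6.33 FPKM, and DNAJB5 fell by 0.23 ± 0.05, from 2.64 to 2.09 FPKM. DNAJA3 fell by 0.16 ± 0.05 and DNAJC11 by 0.15 ± 0.04. DNAJA3 was lost without the second or the third library of DMSO or of ML-792 (adjusted p from 0.098 to 0.14). DNAJC11 was lost without the third DMSO library or the second or the third ML-792 library (adjusted p from 0.076 to 0.13). The count was 3 without the third DMSO library or the second or the third ML-792 library, and 8 without the first ML-792 library.

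In MDAMB231 DNAJB2 rose by 0.39 ± 0.06 (limma adjusted p = 1e-04), from 11.2, 11 and 11.7 FPKM to 15.4, 15.6 and 14.5 FPKM, and DNAJB9 by 0.36 ± 0.06, from 7.46, 7.13 and 7.52 FPKM to 9.69, 9.82 and 9.77 FPKM. In both the groups did not overlap, as in 34.3% of all genes. The cysteine string protein DNAJC5 fell by 0.19 ± 0.06 and DNAJB6 by 0.16 ± 0.05. These falls were lost without most single libraries, DNAJC5 without any except the first ML-792 library (adjusted p from 0.06 to 0.12) and DNAJB6 without any except the third DMSO library (0.061 to 0.13). The count fell to 2 without the first or second DMSO library or the second or the third ML-792 library. DNAJB1 differed by 0.07 in this line and did not pass.

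Differences between the lines in their response were tested as interactions, which share the DMSO and ML-792 libraries of each line. Of 38 members 7 passed between COLO205 and HCT116 (19.4% of all genes), 3 between MDAMB231 and HCT116 (10.8%) and 10 between MDAMB231 and COLO205 (26%). DNAJC3 responded more in COLO205 than in HCT116 by 0.39 and than in MDAMB231 by 0.50. DNAJA3 fell further in COLO205 than in HCT116 by 0.34, and than in MDAMB231, where the interaction was 0.42. DNAJB2 responded more in MDAMB231 than in HCT116 (0.47) and than in COLO205 (0.36), and DNAJC1 less in COLO205 (-0.27) and in MDAMB231 (-0.26) than in HCT116. For DNAJB1 the response in MDAMB231 was below that in COLO205 by 0.24 ± 0.08 (limma adjusted p = 0.039), a call lost without any of 8 of the 12 libraries (adjusted p from 0.053 to 0.09). The count between MDAMB231 and COLO205 was 6 without the second COLO205 or the first MDAMB231 DMSO library.

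The lines themselves differed far more than any line did from its ML-792 treatment. In DMSO at 16 h, 36 of 38 members differed between COLO205 and HCT116, 16 higher and 20 lower in COLO205 (84.9% of all genes, 39.4% higher and 45.5% lower). Between MDAMB231 and HCT116 33 differed, 12 higher and 21 lower in MDAMB231 (83.6% of all genes, 38.1% higher and 45.5% lower). Between MDAMB231 and COLO205 30 differed, 16 higher and 14 lower in MDAMB231 (86.4% of all genes, 41.9% higher and 44.5% lower), with a split of 18 to 14 when scaled by the median of ratios and of 21 to 13 when totals were made equal. These 3 comparisons share their DMSO libraries with each other and with the tests of ML-792. At such a background the counts say little, and the sizes of the differences carry the description.

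DNAJC15 had 5.01, 4.98 and 5.18 FPKM in HCT116, 10.7, 10.3 and 10.6 FPKM in MDAMB231 and 180.3, 172 and 180.4 FPKM in COLO205. The level in COLO205 was 35.1-fold that in HCT116 (4.88 ± 0.05, limma adjusted p = 5.9e-23). Its paralog DNAJC19 spanned less, from 14 FPKM in MDAMB231 to 24.7 FPKM in COLO205.

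DNAJA4 had 50.5, 48.6 and 45.4 FPKM in HCT116, 23.9, 24.7 and 24.7 FPKM in COLO205, and 0.0829, 0.139 and 0.0795 FPKM in MDAMB231. In MDAMB231 it was close to the value of single fragments, since 1 fragment on a transcript of 1 kb was worth 0.0283 to 0.036 FPKM in these libraries. Of the 6 members that rose at least 2-fold after heat shock in HCT116 it was the only one below 1 FPKM in a group without heat shock. The log2 difference from HCT116 was -5.48 ± 0.06. DNAJC12, a cochaperone of the aromatic amino acid hydroxylases, was listed at 0 in all 3 MDAMB231 DMSO libraries, at 2.75 to 3 FPKM in HCT116 and at 2.45 to 3.15 FPKM in COLO205. DNAJC22 was lower in MDAMB231 as well, at 0.619 to 0.696 FPKM against 7.66 to 8.2 in HCT116 and 9.37 to 10.1 in COLO205.

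**Figure D5:**
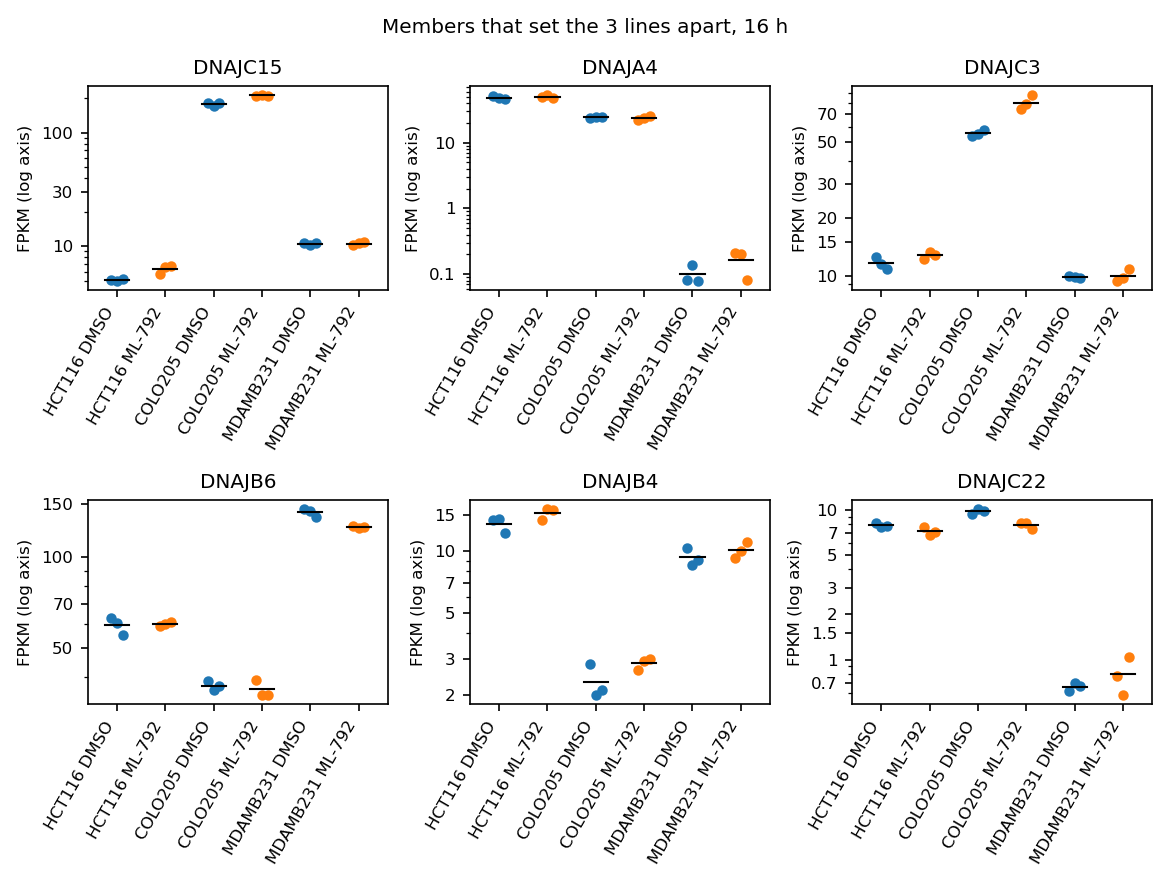
FPKM (log axis) in each of the 3 libraries (points) of the 6 groups of 16 h, with the group mean as a bar, for 6 members with large differences between the lines. DMSO is blue and ML-792 orange. The largest distance between lines exceeds that between treatments in every panel. For DNAJC15 the levels are 172 to 213 FPKM in COLO205 and 4.98 to 6.73 FPKM in HCT116. Not every pair of lines is far apart. DNAJC3 in DMSO is at 10.8 to 12.5 FPKM in HCT116 and 9.72 to 10 FPKM in MDAMB231. DNAJC22 in COLO205 with ML-792 (7.51 to 8.18 FPKM) overlaps HCT116 with DMSO (7.66 to 8.2 FPKM).

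In COLO205 5 of 11 ER members were higher and 6 lower than in HCT116, where 39.4% of all genes were called higher and 45.5% lower. DNAJC3 was 4.79-fold higher than in HCT116 (53.9, 55.3 and 57.5 against 12.5, 11.5 and 10.8 FPKM) and DNAJB11 2.12-fold higher (79.4 against 37.4 FPKM). Conversely, DNAJB4 was at 2.83, 2 and 2.11 FPKM in COLO205 against 14.2, 14.3 and 12.3 FPKM in HCT116, DNAJC6, the auxilin that uncoats clathrin vesicles, at 0.232 against 3.43 FPKM, and DNAJB5 at 0.438 against 2.64 FPKM. Of the 9 cytosolic partners 7 were lower in COLO205 than in HCT116 and 2, DNAJB2 and DNAJC7, were higher. Since 84.9% of all genes were called in this comparison, these counts say little about either group. DNAJA1 was lower by 1.06 ± 0.07, at 78.2 against 164 FPKM.

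MDAMB231 had the highest DNAJB6, at 144, 142 and 136 FPKM against 62.6, 60.4 and 55.2 in HCT116 and 38.9, 36.3 and 37.4 in COLO205 (1.23 ± 0.05 over HCT116). DNAJB5 was also highest there, at 4.93 FPKM, and so was DNAJC5, at 34.7 FPKM. DNAJA3, at 18.5 FPKM, and DNAJC2, at 12.7 FPKM, were lower than in HCT116 by 1.12 ± 0.05 and 1.04 ± 0.05.

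DNAJB1 itself varied little between lines when the cells were not heated. In DMSO at 16 h it had 101, 103 and 99.8 FPKM in HCT116, 73.4, 75 and 80 FPKM in COLO205 and 78.3, 81 and 80.4 FPKM in MDAMB231. HCT116 was the highest, by 0.41 ± 0.06 over COLO205 and 0.34 ± 0.06 over MDAMB231. COLO205 and MDAMB231 overlapped and did not pass (0.07, limma adjusted p = 0.27), although MDAMB231 was called higher with median-of-ratios scaling (0.12, adjusted p = 0.042) and with equal totals (0.19, adjusted p = 0.0011). Across all 10 groups its order ran from these 2 DMSO groups (76.1 and 79.9 FPKM) through MDAMB231 and COLO205 with ML-792 (83.9 and 94.8 FPKM) and HCT116 at 16 h (101 and 114 FPKM) and 3.5 h (128 and 179.7 FPKM, DMSO first) to the heat shocked groups, at 2700.1 ± 290.4 FPKM with DMSO and 3534 ± 281 FPKM with ML-792 (SD, n = 3). The 16 h and 3.5 h libraries are different sets with different summed FPKM. Time and library set cannot be told apart, and the order between 16 h and 3.5 h was not tested.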

How the data were processed

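Stranded TruSeq libraries of polyadenylated RNA, 30 in all, were read as paired 50-base reads, per the labels' protocols. The authors deposited 1 table with a value per gene and library, which was taken as FPKM, although the labels do not name the unit, because low values fall on steps of whole fragments per transcript length (GENCODE lengths of 1414 genes with a single transcript over 1500 bases), which also gave the depth. DESeq2 1.10.1 is named, with no role, in the submitters' processing notes. The sources used here do not give the aligner, genome build, annotation or counting by strand.

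limma 3.58.1 in R 4.3.3 (lmFit, then eBayes with trend and robust) was run on log2(FPKM + 1), which understates the changes of low genes, for genes that reached 1 FPKM in 3 or more of the fitted libraries. The fits were of 18 libraries of 16 h, 12 HCT116 libraries of 3.5 h and, for the time interaction, 12 unheated HCT116 libraries. Calls were made at an adjusted p under 0.05, by Benjamini and Hochberg's method, across every gene of the comparison. The procedure was tested on simulated data. Where nothing says that triplicates were separate cultures, p-values measure the spread between samples that may be technical. In each comparison the called members were named, up to the 8 with the largest difference, besides DNAJB1 and members that describe a role group. Members and lists were chosen with earlier results of these data known. Alternatives were other pseudocounts, filters and scalings, fits of the compared groups alone and leaving out each library.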

Additional observations from a re-analysis of the deposited data

Results flagged for a closer look

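In 24 tests of a difference between settings a named member passed limma at an adjusted p under 0.05, and its difference of the ML-792 effects on the log2(FPKM + 1) scale is given here. For COLO205 minus HCT116 these were DNAJB9 with 0.39, DNAJC3 with 0.39, DNAJA3 with -0.34, DNAJB5 with 0.33, DNAJC10 with -0.30, DNAJB11 with 0.30 and DNAJC1 with -0.27. DNAJB5 passed here although its effect in COLO205 alone did not pass. For MDAMB231 minus HCT116 they were DNAJB2 with 0.47, DNAJC15 with -0.27 and DNAJC1 with -0.26. For MDAMB231 minus COLO205 they were DNAJC3 with -0.50, DNAJA3 with 0.42, DNAJB11 with -0.40, DNAJC22 with 0.38, DNAJB2 with 0.36, DNAJA1 with -0.32, DNAJC15 with -0.26 and DNAJB1 with -0.24. The call of DNAJA1 was lost without the second COLO205 DMSO library (adjusted p = 0.058) or the first MDAMB231 DMSO library (adjusted p = 0.054). Of the ML-792 effect with heat shock minus that without it, DNAJB9 had -0.91 and DNAJC10 -0.72. Of the effect at 16 h minus that at 3.5 h, DNAJA4 had -0.36, DNAJB1 -0.31, DNAJC1 0.28 and DNAJA3 -0.23.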

How the results depend on the processing

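No paired analysis was possible because samples are not numbered in the labels. Alternatives that need counts were not run, since the table holds FPKM. With equal totals 3 members called higher after heat shock under ML-792 turned sign without passing, DNAJC1 to -0.03, DNAJC2 to -0.11 and DNAJC24 to -0.03. Over DNAJB1 and at most 8 called members a comparison, no direction turned. Of 678 of their values under other processing choices 654 kept their side of the threshold, 21 lost the call and 3 gained it, and with a library left out 692 of 756 kept it and 64 lost it. Counts of called members that moved by over 1.5 times were 2 (from 9) for ML-792 against DMSO after heat shock and 6 (from 2) at 3.5 h without heat shock when only the groups compared were fitted, and 4 (from 2) for the interaction of heat shock with ML-792 under median-of-ratios scaling. With 1 library left out, the counts ranged from 3 to 8 (HCT116), 12 to 13 (COLO205) and 2 to 5 (MDAMB231) for ML-792 at 16 h. They ranged from 33 to 35, 32 to 34 and 28 to 30 between the lines (COLO205 and HCT116, MDAMB231 and HCT116, MDAMB231 and COLO205), and from 7 to 9, 3 to 4 and 6 to 10 for the interactions of the same pairs. They ranged from 20 to 21 (DMSO) and 17 to 22 (ML-792) for heat shock, 4 to 15 for ML-792 after heat shock, 1 to 2 at 3.5 h without it, 2 to 6 for the heat shock interaction and 1 to 6 for that of time. Where this was outside 1.5 times, the cause was not tested. The members below 1 FPKM numbered 7 by group mean and 6 by single library. Groups of 3 and the offset of 1 FPKM limit what can be seen in low members.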
